A study of Mus musculus with 8 samples.

Results

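Egr1, Egr2, Egr3, Klf2, Klf4, Klf6, Klf10, Ier2, Ier3 and Nr4a1 are genes that serum and growth factors switch on within minutes to hours, and they were chosen here by name through the RefSeq accessions of their array probes. They made up 10 of the 26262 features tested. The RNA came from N18TG2, a mouse neuroblastoma line, and from the 2/4 clone, a single clone that expresses ChAT, choline acetyltransferase, which synthesises the transmitter acetylcholine. There were 4 groups with 2 one-colour arrays each: the clone with 1 µM all-trans retinoic acid (RA), the untreated clone, the parental line with RA and the untreated parental line. G418 at 200 µg/mL was used to maintain the clone and not the parental line. With a single clone, ChAT expression, the picking of a clone and G418 cannot be told apart in any comparison of lines. RA was given in medium with 1% serum, whereas growth medium held 10% serum, and the labels state neither how long RA was applied nor in which medium untreated cells were kept. Lower serum may therefore go with RA, and for genes defined by their response to serum the effects of RA and of serum cannot be told apart.

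These genes are the immediate early class: they need no new protein synthesis to be induced. Growth factor receptors signal through Ras and the ERK kinases to serum response factor (SRF), which sits on a short AT-rich element, the CArG box, together with ternary complex factors such as Elk1, Elk3 and Elk4. The genes mostly encode transcription factors. Egr1, Egr2 and Egr3 are zinc finger activators that bind GC-rich sites and are held back by the corepressors Nab1 and Nab2. Klf2, Klf4, Klf6 and Klf10 are Krüppel-like zinc finger factors, and Nr4a1 is an orphan nuclear receptor first isolated as a gene induced by nerve growth factor in neuron-like cells. Ier2 and Ier3 are small early response proteins, and Ier3 is known for its part in cell survival.

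Intensities were divided by the 75th percentile of each array, so a log2 level of 0 marks that percentile and levels are compared only for the same gene between arrays. That percentile ran between 264.8 and 1264 intensity units over the 8 arrays. Between 48.6% and 63.3% of spots were well above background on 7 arrays, against 72.1% on replicate 1 of the RA-treated clone. The pair of RA-treated clone arrays correlated at 0.9625, below the 0.983 to 0.9872 of the other pairs. All arrays lay on 1 slide, and 1 of its rows held the untreated clone and the RA-treated parental arrays, so slide row cannot be told apart from line within a treatment or from RA within a line. The difference between the RA responses of the lines is likewise the difference between the slide rows. Slide row cancels when both treatments, or both lines, are averaged. Slide column does not cancel for the lines: parental arrays lay in columns 1 and 3, and clone arrays in columns 2 and 4. Column therefore cannot be told apart from line in any comparison of lines, the average over treatments included. Whether both arrays of a group represent independent cultures is not stated, so the p-values may reflect technical spread only. In RNA from whole cultures, fewer expressing cells and less RNA per cell cannot be told apart.

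The extraction text names hippocampus although the samples are a neuroblastoma line. Of 11 markers of sympathetic neuroblasts, the cell type neuroblastoma resembles, 10 were well above background on all 8 arrays, among them Hand2, Gata3 and Th. Of 10 markers of hippocampal neurons 4 were (Wfs1, Zbtb20, Lhx2 and Camk2a), while Prox1, Neurod6 and Neurod2 were on no array. The summed level of the hippocampal list was 8.87 to 8.95 in the RA-treated clone, 15.4 to 16.5 in the untreated clone, 14.8 to 16.6 in the RA-treated parental line and 13.4 to 15.9 in the untreated parental line. For the neuroblast list the sums were 130 to 163, 68 to 80.6, 66.3 to 74.1 and 86.5 to 111 in the same order of groups. Of 6 glial and 6 fibroblast markers, 3 and 2 were well above background on all arrays, and the fibroblast marker Lum was on none. The glial sums were 0.646 to 0.701 in the RA-treated clone, 0.605 to 0.678 in the untreated clone, 0.867 to 1.41 in the RA-treated parental line and 1.67 to 1.83 in the untreated parental line. For the fibroblast list they were 1.22 to 1.41, 1.07 to 1.22, 0.573 to 0.718 and 0.807 to 1.16 in that order. The part of these sums in the results below was not tested.

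Promoter sequence was available in RefSeq windows (GRCm38.p6) for 6 of the 10 genes. The 250 bases before each start are shown for 1 of the 5 windows of Egr2, chosen because it holds an SRF element, and for Klf2, Nr4a1 and Klf4, the genes with called differences that have a window. In Egr2 (chr10:67537619-67537868, plus strand) capitals mark a CArG box, the element bound by SRF, at positions -72 to -63 from the start, and the reverse complement of TGACGTC, the core of the cAMP response element, at -57 to -51.
Egr2: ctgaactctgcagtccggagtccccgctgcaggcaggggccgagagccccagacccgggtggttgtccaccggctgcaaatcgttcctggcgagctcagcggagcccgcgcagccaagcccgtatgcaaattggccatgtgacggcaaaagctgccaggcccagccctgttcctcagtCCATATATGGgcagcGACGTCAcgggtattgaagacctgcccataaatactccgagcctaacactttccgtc
Klf2 (chr8:72318812-72319061, plus strand): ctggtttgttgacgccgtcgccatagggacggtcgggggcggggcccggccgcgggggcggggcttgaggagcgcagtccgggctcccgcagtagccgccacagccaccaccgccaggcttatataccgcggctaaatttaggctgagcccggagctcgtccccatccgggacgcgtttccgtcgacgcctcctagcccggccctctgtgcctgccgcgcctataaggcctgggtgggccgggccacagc
Nr4a1 (chr15:101266596-101266845, plus strand): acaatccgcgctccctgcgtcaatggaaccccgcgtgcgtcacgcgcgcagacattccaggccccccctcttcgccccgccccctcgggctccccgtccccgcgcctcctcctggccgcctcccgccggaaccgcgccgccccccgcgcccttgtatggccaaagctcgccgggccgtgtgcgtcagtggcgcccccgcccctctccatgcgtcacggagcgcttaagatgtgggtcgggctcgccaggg
Klf4 (chr4:55532476-55532725, minus strand): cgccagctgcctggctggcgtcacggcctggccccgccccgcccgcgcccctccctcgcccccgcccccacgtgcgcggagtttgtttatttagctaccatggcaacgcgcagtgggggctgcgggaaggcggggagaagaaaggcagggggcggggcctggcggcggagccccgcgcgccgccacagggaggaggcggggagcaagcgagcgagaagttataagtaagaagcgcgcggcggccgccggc
The last 3 sequences are in lower case throughout because none of the 4 motifs searched matched there. Both strands were searched for the CArG box and the cAMP response element core. They were also searched for GGAAGT, a motif of Ets factors such as the ternary complex factors. The last motif was the core of the Egr site, GTGGGCG. Over all 32851 windows of this length, 1.47% held a CArG box, 2.78% TGACGTC, 19.7% GGAAGT and 7.02% GTGGGCG. Egr2 was the only one of the 6 genes with a match, and the CArG box and TGACGTC did not overlap each other in any window. Of its 5 windows, 3 overlapping ones hold the CArG box and TGACGTC shown, 1 holds another CArG box and no TGACGTC, and 1 holds only GTGGGCG. These windows are short, and a match or its lack is a description of letters only.

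In the RA-treated clone against the RA-treated parental line, Nr4a1, Klf10, Klf2 and Klf4 were lower, and in the untreated clone against the untreated parental line Klf2 and Nr4a1 were lower. With RA, 4 of 10 were called lower by limma at an adjusted p under 0.05, against 10.2% of all features, and 0 of 10 higher, against 12.9%. Both clone arrays lay below both parental arrays for 8 of 10 with RA, against 27.8% of all features, and above them for 0 of 10, against 31%. Untreated, 2 of 10 were called lower, against 3.69% of all features, and 0 of 10 higher, against 6.13%. There 3 of 10 lay fully below, against 24%, and 0 of 10 fully above, against 36.1%. The 10 genes were chosen with earlier results of these data known, so setting them against all features is no independent test. The median log2 difference of the 10 genes was -1.25 with RA, where all features had a median of 0.11, and -0.21 untreated, where all features had 0.11. The untreated median was -0.54 without replicate 2 of the untreated parental line, -0.14 without its replicate 1 and -0.12 without replicate 2 of the untreated clone. Averaged over both treatments, Nr4a1, Klf2 and Klf10 were called lower in the clone, 3 of 10 against 11.6% of all features, and 0 of 10 higher, against 16.1%.

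**Figure D1:**
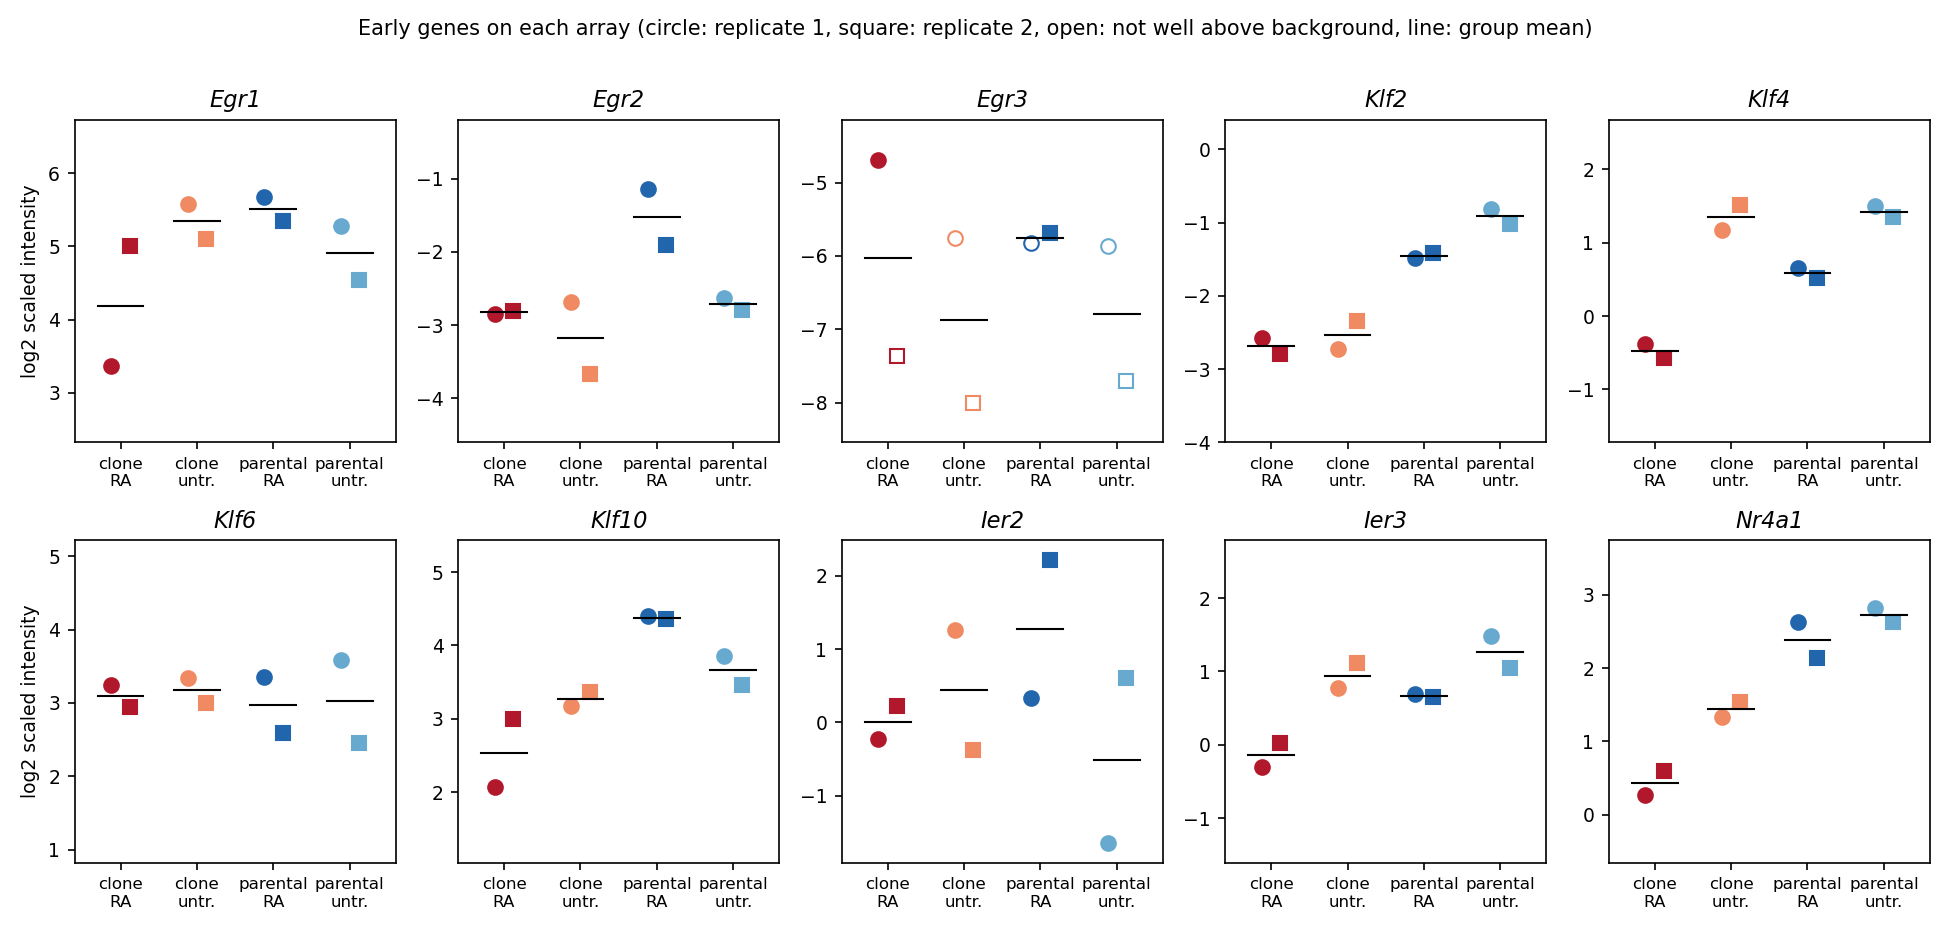
Log2 intensity relative to the 75th percentile of each array (vertical axis, 4.4 log2 units in every panel) for each early gene on each array, by group, with replicate 1 as a circle, replicate 2 as a square and the group mean as a line. All 4 clone points of Klf2, of Klf10 and of Nr4a1 lie below all 4 parental points. Ier2 spreads widely within groups, and open symbols in the Egr3 panel are arrays where it was not well above background.

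Nr4a1 had log2 levels of 0.27 and 0.59 in the RA-treated clone, 1.34 and 1.54 in the untreated clone, 2.14 and 2.63 in the RA-treated parental line, and 2.63 and 2.82 in the untreated parental line. Every clone array was below every parental array. With RA the clone was 3.87-fold lower than the parental line (log2 difference -1.95 ± 0.30 SE, adjusted p = 0.00457, limma), and this call held under all 11 alternative settings and all 8 fits that left out an array. Untreated, it was 2.44-fold lower (-1.29 ± 0.30, adjusted p = 0.0396, limma), a call lost when any 1 of the 4 untreated arrays was left out (adjusted p 0.137 to 0.206) under normexp background correction (0.0642), without the filter on dim probes (0.111) and with slide side, replicate 1 against 2 in every group, as a block (0.0569). Over both treatments the average difference was -1.62 ± 0.21 (adjusted p = 0.00179, limma). Within the clone both RA arrays lay below both untreated arrays (-1.0 ± 0.30, adjusted p = 0.11, limma), and within the parental line the difference was -0.34 ± 0.30 (adjusted p = 0.698, limma). Neither passed the test.

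Klf2, best known as the shear stress factor of endothelial cells and a quiescence factor of T cells, had levels of -2.79 and -2.58 in the RA-treated clone, -2.72 and -2.34 in the untreated clone, -1.49 and -1.42 in the RA-treated parental line, and -1.02 and -0.81 in the untreated parental line. As for Nr4a1, no clone array reached a parental one. The clone was 3.07-fold lower untreated (-1.62 ± 0.28, adjusted p = 0.0129, limma) and 2.35-fold lower with RA (-1.23 ± 0.28, adjusted p = 0.0202, limma). Neither call held under normexp background correction (adjusted p = 0.0722 untreated and 0.203 with RA). The untreated call was lost without any 1 of the 4 untreated arrays (adjusted p 0.0647 to 0.104), and the RA call without replicate 1 or 2 of the RA-treated parental line (0.0576 and 0.0686) or replicate 2 of the RA-treated clone (0.0594). The RA call was also lost without the filter on dim probes (0.0577) and in a fit of only the groups compared (0.0934). The average over both treatments, -1.42 ± 0.20 (adjusted p = 0.00225, limma), was called under all 10 settings and all 8 fits without an array.

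Klf4, which takes part in growth arrest and in pluripotency, was the one early gene called for RA within the clone. Its levels were -0.57 and -0.38 in the RA-treated clone, 1.17 and 1.52 in the untreated clone, 0.52 and 0.65 in the RA-treated parental line, and 1.35 and 1.50 in the untreated parental line. The untreated lines overlapped and the RA-treated clone was the lowest of the groups. RA went with a 3.53-fold lower level in the clone (-1.82 ± 0.27, adjusted p = 0.0226, limma). In the parental line the difference was -0.84 ± 0.27, with an unadjusted p of 0.0174 and an adjusted p of 0.214 by limma. The difference between these responses, -0.98 ± 0.38, did not pass the test (adjusted p = 0.323, limma), while the RA effect averaged over both lines did (-1.33 ± 0.19, adjusted p = 0.0173, limma). With RA the clone was 2.09-fold below the parental line (-1.06 ± 0.27, adjusted p = 0.0319, limma), and this call was lost in each of the 8 fits that left out an array (adjusted p 0.0574 to 0.0939), without the filter on dim probes (0.0836) and in a fit of only the groups compared (0.127). The RA call in the clone was lost without either untreated clone array (0.129 and 0.184), without either untreated parental array (0.0537 each) or without replicate 1 of the RA-treated clone (0.0517), and also without the filter (0.0844) or with only the groups compared (0.101). The averaged RA call was lost in 5 of the 8 such fits (adjusted p 0.0546 to 0.0982) and without the filter (0.0651).

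Klf10, an early gene of transforming growth factor beta signalling, had levels of 2.07 and 2.99 in the RA-treated clone, 3.18 and 3.36 in the untreated clone, 4.36 and 4.40 in the RA-treated parental line, and 3.46 and 3.86 in the untreated parental line. Every clone array was below every parental array, though 3.36 and 3.46 lay close. RA arrays lay below untreated arrays in the clone and above them in the parental line. With RA the clone was 3.61-fold lower than the parental line (-1.85 ± 0.37, adjusted p = 0.0128, limma), and the call was lost without replicate 1 (0.0572) or 2 (0.0571) of the RA-treated parental line and with only the groups compared (0.0673). Untreated, the difference of -0.39 ± 0.37 did not pass (adjusted p = 0.586, limma). RA gave -0.73 ± 0.37 in the clone (adjusted p = 0.302, limma) and 0.72 ± 0.37 in the parental line (adjusted p = 0.448, limma). The clone value was -0.27 without replicate 1 of the RA-treated clone and -1.20 without replicate 2. The average difference between the lines was -1.12 ± 0.26 (adjusted p = 0.0186, limma), a call lost in 5 of the 8 fits without an array (0.0508 to 0.0705) and without the filter (0.0503).

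Klf6, a broadly expressed member of the family, had levels of 2.94 and 3.25 in the RA-treated clone, 3.00 and 3.34 in the untreated clone, 2.59 and 3.36 in the RA-treated parental line, and 2.46 and 3.58 in the untreated parental line. The groups overlapped in every comparison. The 4 differences between groups lay between -0.07 and 0.15, each with an SE of 0.45, and with RA the 95% interval of clone minus parental was -0.95 to 1.20. A difference of up to about 1 log2 unit either way is therefore within the interval. The sign of Klf6 with RA turned under quantile normalization in the clone (0.20) and under normexp correction in the parental line (0.09).

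**Figure D2:**
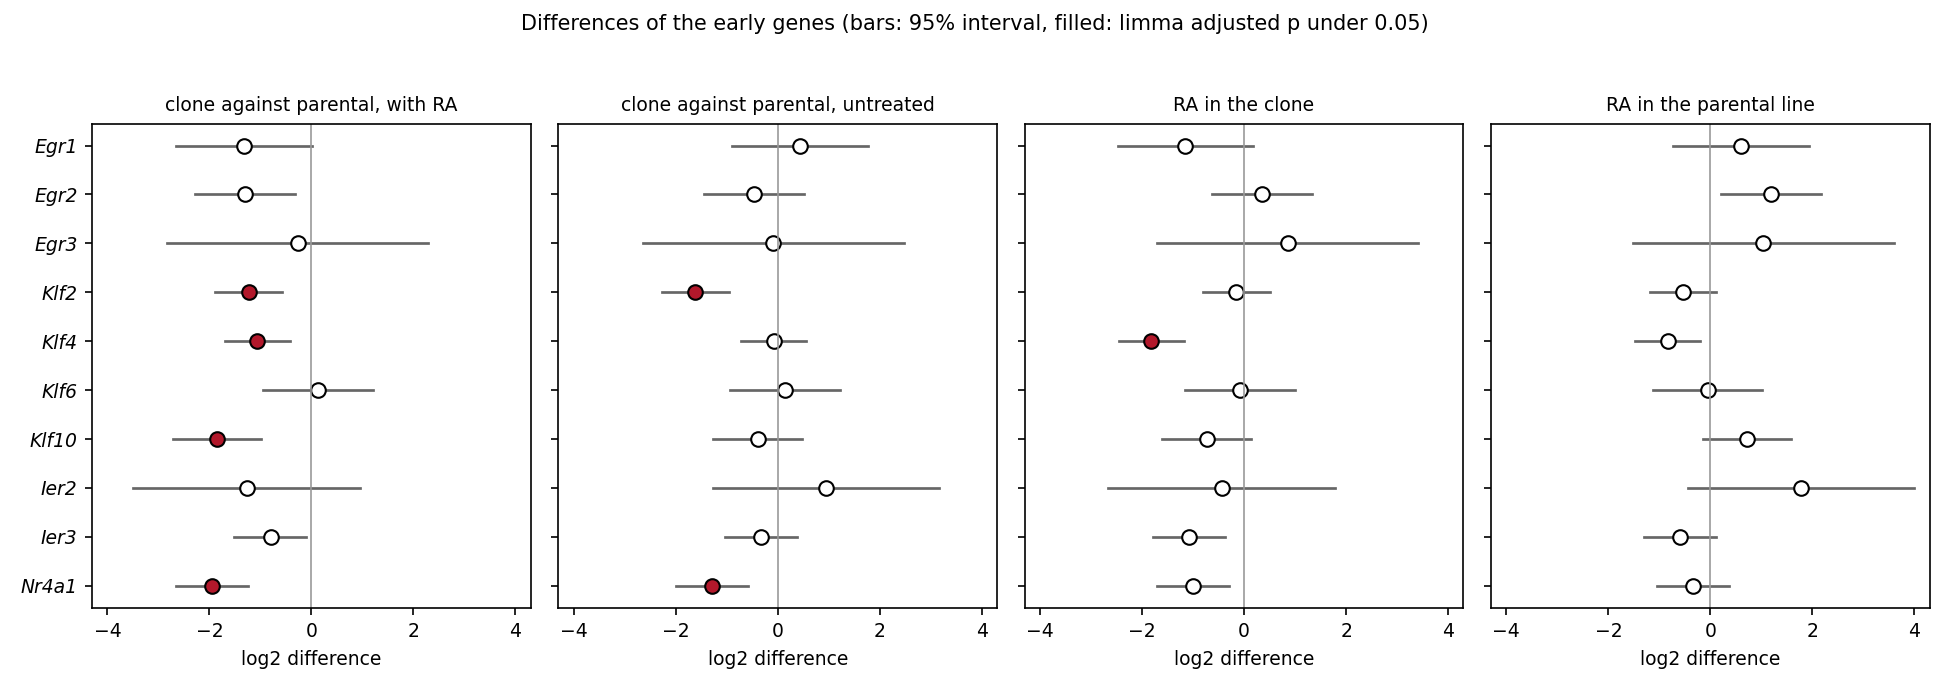
Log2 differences (horizontal axis) of the 10 early genes in the comparisons of clone with parental line and of RA with untreated cells, as points with 95% intervals, filled where limma's adjusted p was under 0.05. Filled points lie to the left of 0 in all panels that have any, and the panel for RA in the parental line has none.

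Egr1, the best studied of the Egr factors and a mediator of growth factor responses in neurons, had levels of 3.37 and 5.01 in the RA-treated clone, 5.10 and 5.58 in the untreated clone, 5.34 and 5.68 in the RA-treated parental line, and 4.54 and 5.28 in the untreated parental line. Replicate 1 of the RA-treated clone stood 1.65 below replicate 2, and 12.1% of all features had a larger gap between those arrays. No difference passed the test: with RA, clone minus parental was -1.32 ± 0.56 (adjusted p = 0.14, limma), and untreated it was 0.43 ± 0.56 (0.707). RA in the clone gave -1.15 ± 0.56 (adjusted p = 0.292, limma) and RA in the parental line 0.60 ± 0.56 (0.723). These values turned on the RA-treated clone arrays. Without replicate 2, clone minus parental with RA was -2.14 (adjusted p = 0.0128, limma) and RA in the clone -1.97 (0.0338). Without replicate 1 they were -0.49 (0.51) and -0.33 (0.762).

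Egr2, which controls hindbrain patterning and Schwann cell myelination and whose promoter letters are shown above, had levels of -2.85 and -2.80 in the RA-treated clone, -3.66 and -2.68 in the untreated clone, -1.91 and -1.14 in the RA-treated parental line, and -2.79 and -2.63 in the untreated parental line. The RA-treated parental arrays stood above the other 6. With RA, clone minus parental was -1.30 ± 0.41 with a 95% interval of -2.28 to -0.32 (adjusted p = 0.0632, limma). That difference passed the test under quantile normalization (-1.91, adjusted p = 0.0431), with slide side as a block (0.0437), with a trended, robust variance (0.0456) and among features above background on every array (0.0306). RA in the parental line gave 1.19 ± 0.41, with an unadjusted p of 0.0241 and an adjusted p of 0.246 by limma. In the clone it gave 0.35 ± 0.41 (adjusted p = 0.671, limma), whose sign turned under quantile normalization (-0.35). Untreated, clone minus parental was -0.46 ± 0.41 (adjusted p = 0.567, limma).

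Egr3, known for its part in muscle spindle development, was well above background on 2 of 8 arrays, replicate 2 of the RA-treated parental line and replicate 1 of the RA-treated clone. Its levels were -7.36 and -4.69 in the RA-treated clone, -8.00 and -5.76 in the untreated clone, -5.82 and -5.69 in the RA-treated parental line, and -7.71 and -5.87 in the untreated parental line. Such dim values give no measured fold. The fitted RA difference was 0.86 ± 1.08 in the clone (adjusted p = 0.691, limma) and 1.04 ± 1.08 in the parental line (0.757). Neither passed the test, and their signs turned under quantile normalization in the clone (-0.17) and under normexp correction in the parental line (-0.31).

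Ier2, a nuclear early response protein, had levels of -0.23 and 0.23 in the RA-treated clone, -0.38 and 1.26 in the untreated clone, 0.33 and 2.21 in the RA-treated parental line, and -1.64 and 0.61 in the untreated parental line. Arrays of the same group differed by 1.64 in the untreated clone, 1.88 in the RA-treated parental line and 2.25 in the untreated parental line. Larger gaps were seen in 2.8%, 1.62% and 1.31% of all features in those pairs. With an SE of 0.94, no comparison of Ier2 passed the test: RA in the parental line was 1.78 (adjusted p = 0.469, limma) and clone minus parental with RA -1.27 (0.369).

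Ier3 had levels of -0.30 and 0.03 in the RA-treated clone, 0.77 and 1.11 in the untreated clone, 0.65 and 0.69 in the RA-treated parental line, and 1.05 and 1.48 in the untreated parental line. The RA-treated clone was lowest, as for Klf4, and in both lines the RA arrays lay below the untreated ones. RA in the clone gave -1.08 ± 0.30 (adjusted p = 0.0942, limma), which passed with a trended, robust variance (0.0446) and among features above background on every array (0.049). RA in the parental line gave -0.60 ± 0.30 (adjusted p = 0.438, limma). With RA, clone minus parental was -0.80 ± 0.30 (adjusted p = 0.0982, limma), and untreated it was -0.33 ± 0.30 (0.577).

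Few of these genes, and few of all features, were called for RA. In the clone 1 of 10, Klf4, was called lower, against 2.05% of all features, and 0 of 10 higher, against 2.58%. Both RA arrays lay below both untreated arrays for 5 of 10, against 28.7% of all features, and above them for 0 of 10, against 24.2%. In the parental line limma called 0 of 10 in either direction, where 0.529% of all features were called higher and 0.59% lower, and 2 of 10, Egr2 and Klf4, had an unadjusted p under 0.05, against 14.4% of all features. There, 4 of 10 lay fully above (23.4% of all features) and 4 of 10 fully below (20.8%). Egr3, among those above, was well above background on 1 of 2 RA-treated and 0 of 2 untreated parental arrays, so its place rests on dim values. The median log2 difference of the 10 genes for RA was -0.59 among clone arrays and 0.27 among parental arrays, where all features had 0.02 in each. The parental median did not keep its sign: it was -0.10 with normexp, -0.05 among probes above background on every array and -0.16 without replicate 2 of the untreated parental line. It was 0.08 with a floor for dim signals, 0 without replicate 1 of the RA-treated parental line, 0.54 without replicate 2 of it, and 0.58 without replicate 1 of the untreated one. The clone median was -0.30 without replicate 1 of the RA-treated clone and -0.92 without replicate 2. Averaged over both lines Klf4 was called lower, 1 of 10 against 2.7% of all features, and 0 of 10 were called higher, against 3.13%. For the difference between the responses of the lines, limma called 0 of 10 (0.206% of all features), with 2, Klf4 and Klf10, at an unadjusted p under 0.05, against 13.9% of all features. The comparison of lines with RA and the RA response of the clone share the RA-treated clone arrays, so Klf4 being called in both is not independent.

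**Figure D3:**
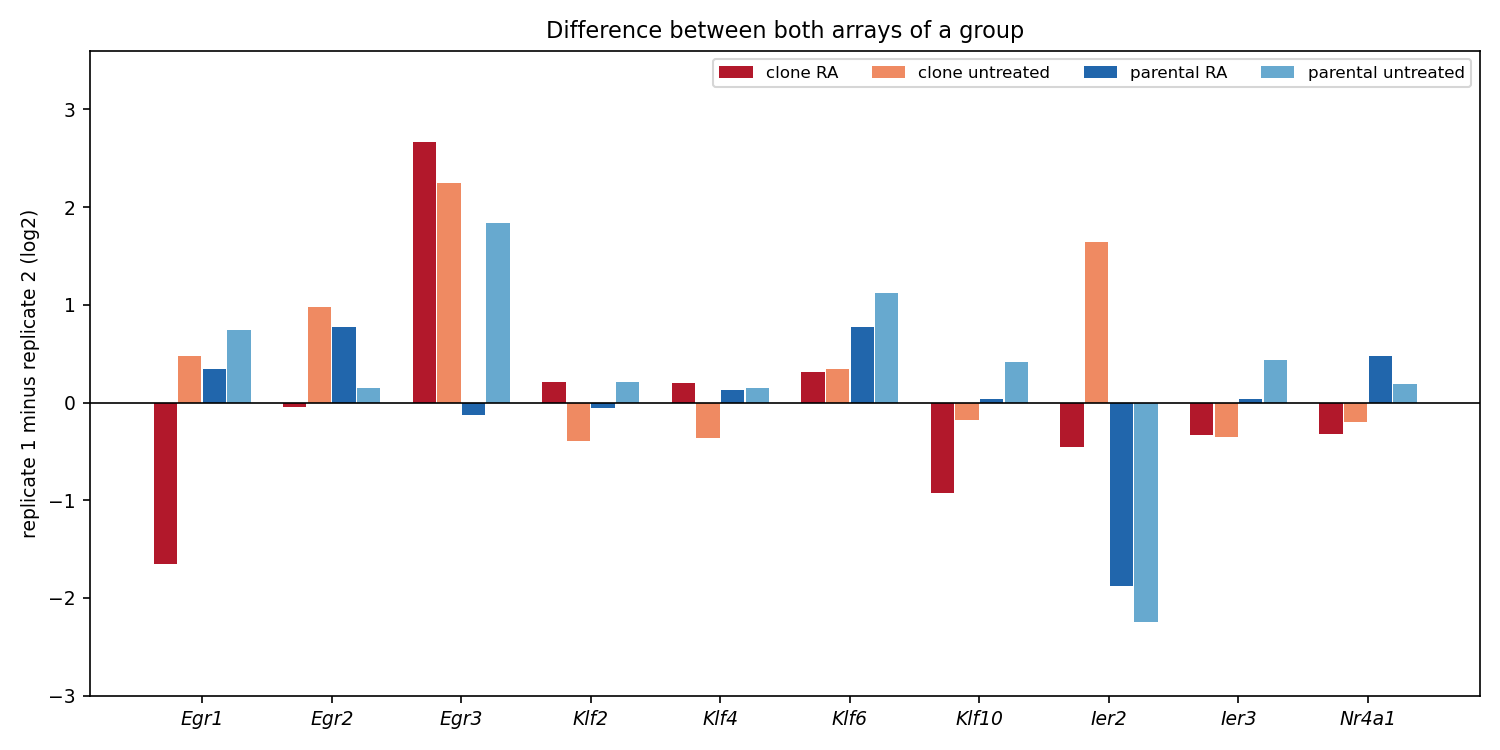
Replicate 1 minus replicate 2 in log2 units (vertical axis) for each early gene, with a bar for each of the 4 groups. Ier2 has gaps above 1.6 in size in 3 groups and Egr3 in 3 groups, while Klf2, Klf4, Ier3 and Nr4a1 stay below 0.5 in all 4.

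The members varied differently between replicate arrays. The median size of the gap over the 10 genes was 0.33 in the RA-treated clone, 0.37 in the untreated clone, 0.23 in the RA-treated parental line and 0.42 in the untreated parental line. Over all features it was 0.45, 0.29, 0.46 and 0.35 in that order. In the untreated parental line 9 of 10 early genes were higher on replicate 1, where 57.8% of all features were. Across the 8 arrays the pairs of members with the most similar patterns were Klf4 and Ier3 (Pearson r = 0.94) and Klf2 and Nr4a1 (0.91), and the least alike were Klf6 and Ier2 (-0.60). Among other genes with a symbol, those most like Klf2 were Npw (0.994), Rgcc (0.993), Scara5 (0.991), Igfbp2 and Artn (0.989 each). For Nr4a1 they were Naa25 (0.996), Elk3 (0.995), Rnaseh2b, Esf1 and Lactb2 (0.993 each), and for Egr1 Ccdc15 (0.909), Hyls1 (0.908), Hypk (0.905), Syncrip and Olfr1134 (0.903 each). These are descriptions over 8 arrays that share a slide and 4 group means, chosen as the highest of many genes.

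Among 15 measured relatives, 2 were called higher and 5 lower in the clone with RA, and 0 higher and 2 lower untreated. The 15 were other Klf, Ier and Nr4a members and Ier3ip1, which is named for interacting with Ier3 and is no Ier factor. Ier3ip1 was among the 5 called lower with RA. Of all features 12.9% were called higher and 10.2% lower with RA, 6.13% and 3.69% untreated, and 2.58% and 2.05% for RA in the clone. Klf15, a metabolic factor of the family, was well above background on all parental arrays and on none of the clone. It was at least 37.9-fold lower in the clone with RA (adjusted p = 0.000238, limma) and at least 14.0-fold lower untreated (0.00123). Klf8 was lower with RA (-1.81 ± 0.32, adjusted p = 0.00818, limma) and Klf12 higher (3.30 ± 0.45, 0.00281). Untreated, Nr4a2, the relative of Nr4a1 that dopamine neurons need, was lower too (-1.88 ± 0.40, adjusted p = 0.0289, limma). It was also called lower with RA (-1.69 ± 0.40, adjusted p = 0.0242, limma). RA in the clone called 1, Klf8, lower (-1.70 ± 0.32, adjusted p = 0.0361, limma). Without replicate 1 of the RA-treated clone these counts were 2 higher and 3 lower with RA, and 0 for RA in the clone. Each call of Klf15 and those of Klf12 and Klf8 with RA held in all 8 fits that left out an array. The untreated Nr4a2 call was lost in 5 of them. Those left out either RA-treated parental array, either untreated clone array or replicate 1 of the untreated parental line. The RA call of Klf8 in the clone was also lost in 5, without any untreated array or replicate 1 of the RA-treated clone. The Nr4a2 call with RA was not followed in these fits. Egr4, Wt1, Klf13, Klf14 and Nr4a3 did not pass the filter on dim probes.

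Of 42 other immediate early genes measured, 3 were called higher and 11 lower in the clone with RA, and 1 higher and 5 lower untreated, with medians of -0.24 and -0.02. The shares of all features were those given for the relatives, 12.9% and 10.2% with RA and 6.13% and 3.69% untreated. For RA in the clone they were 2.58% higher and 2.05% lower. Atf3, a stress-induced transcription factor, was 22.9-fold lower with RA (-4.52 ± 0.28, adjusted p = 0.000166, limma). Ccn1, a secreted matrix protein, was at least 28.7-fold lower with RA, where it was not well above background on either clone array (adjusted p = 0.000793, limma), and was also called lower untreated (0.000852), where 1 of 2 clone arrays was well above background and no fold is given. Dusp2, a phosphatase of ERK, was lower with RA (-3.03 ± 0.32, adjusted p = 0.0011, limma). Untreated, Gem was lower (-2.52 ± 0.32, adjusted p = 0.00386, limma) and Phlda1 higher (2.57 ± 0.37, 0.00703). Gem was also called lower with RA (-1.79 ± 0.32, adjusted p = 0.00824, limma), and Atf3 untreated (-1.23 ± 0.28, 0.0351). For RA in the clone 1 was called higher, Zfp36l1 (1.49 ± 0.26, adjusted p = 0.0318, limma), and 2 lower, Atf3 (-2.87 ± 0.28, 0.0117) and Dusp2 (-1.89 ± 0.32, 0.029). The response of Atf3 to RA differed between the lines (-3.29 ± 0.39, adjusted p = 0.0417, limma), though line and slide row cannot be told apart in this difference. The call was kept in 1 of 8 fits without an array (that without replicate 2 of the RA-treated clone), with adjusted p up to 0.257 in the others. In those fits the clone calls of Atf3 and Dusp2 with RA, of Gem untreated and of Ccn1 in both treatments all held. That of Phlda1 was lost without either untreated clone array. The clone calls of Atf3 untreated and Gem with RA were not followed there. For RA in the clone, Atf3 was lost without either untreated clone array, and Dusp2 and Zfp36l1 without any untreated array or replicate 1 of the RA-treated clone (adjusted p up to 0.148, 0.165 and 0.194). Without replicate 1 of the RA-treated clone the counts with RA were 3 higher and 8 lower, and for RA in the clone 1 higher and 1 lower.

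**Figure D4:**
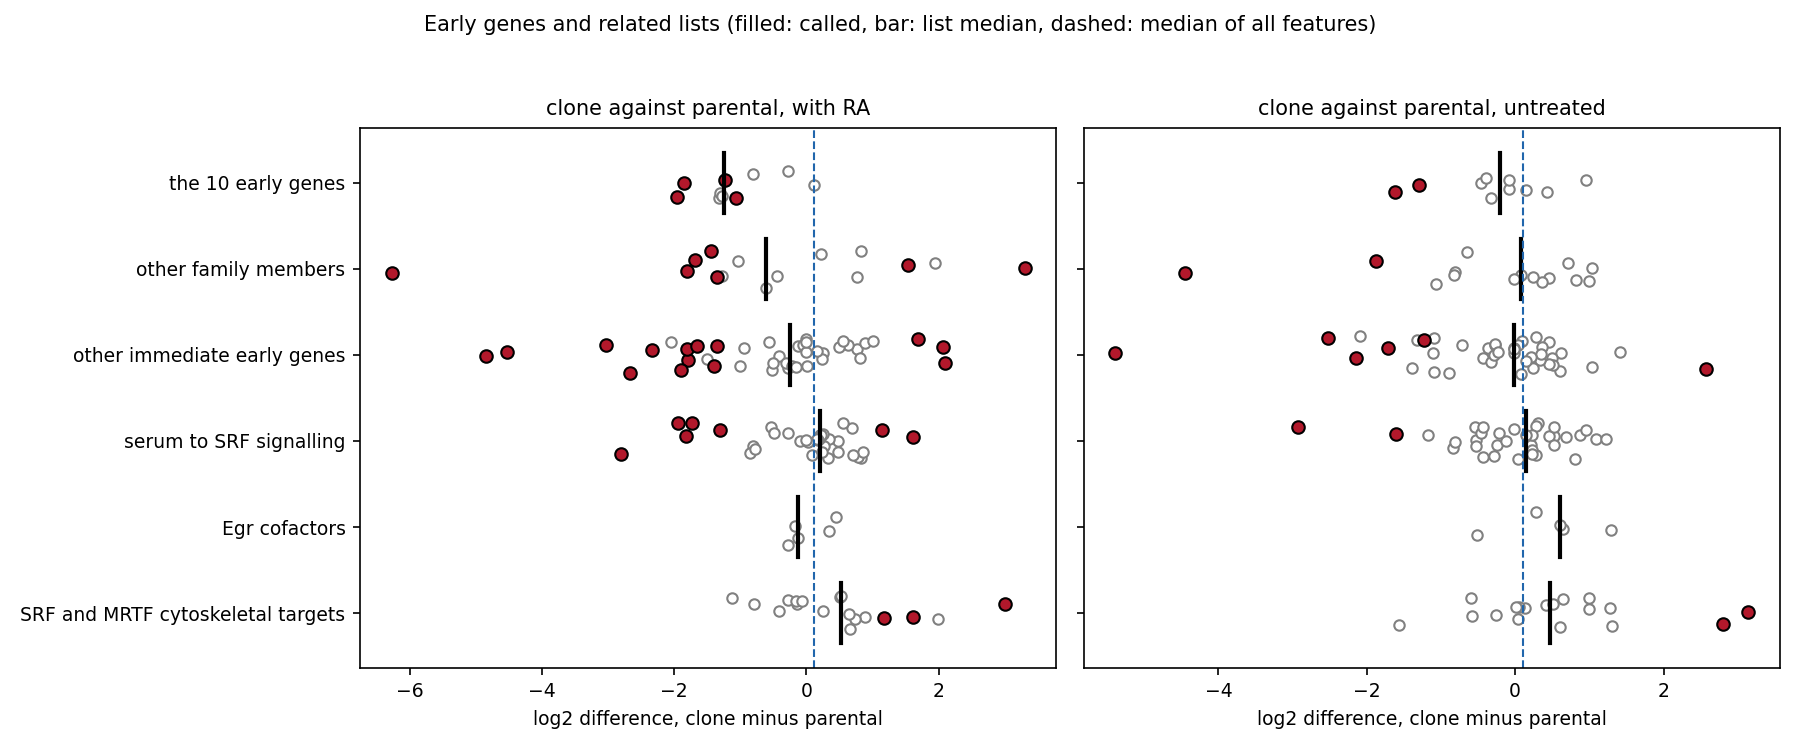
Log2 difference of clone minus parental line (horizontal axis) with RA and untreated, for the 10 early genes and 5 related lists, with a point per gene, filled where called, a bar at each list's median and a dashed line at the median of all features. The early genes have a median of -1.25 with RA and the SRF and MRTF targets one of 0.52, either side of the dashed line at 0.11.

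The signalling route from serum to SRF was measured at 35 of 35 genes. In the clone 2 were called higher and 5 lower with RA, and 0 higher and 2 lower untreated, with medians of 0.20 and 0.15. The shares of all features were again 12.9% and 10.2% with RA and 6.13% and 3.69% untreated. For RA in the clone they were 2.58% higher and 2.05% lower. Egfr, the epidermal growth factor receptor, was lower with RA (-1.82 ± 0.36, adjusted p = 0.0127, limma) and untreated (-2.93 ± 0.36, 0.00356). Elk3, a ternary complex partner of SRF, was also lower with RA (-2.80 ± 0.39, adjusted p = 0.00314, limma) and untreated (-1.61 ± 0.39, 0.0462). The kinase Rps6ka3, which acts below ERK, was lower with RA (-1.94 ± 0.31, adjusted p = 0.00556, limma). For RA in the clone, Pdgfrb, a receptor for platelet-derived growth factor, was lower (-2.68 ± 0.41, adjusted p = 0.0233, limma) and was the only one called. Leaving out 1 array ended the untreated call of Elk3 for any untreated array (adjusted p up to 0.232), the RA call of Egfr for replicate 2 of the RA-treated parental line (0.0663), and the call of Pdgfrb for any untreated array or replicate 1 of the RA-treated clone (up to 0.183). Without replicate 1 of the RA-treated clone the counts with RA were 0 higher and 3 lower, and 0 for RA in the clone.

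SRF also drives cytoskeletal genes with its coactivators, the MRTF proteins, and 18 of 20 such targets were measured. In the clone 3 were called higher and 0 lower with RA, and 2 higher and 0 lower untreated, with medians of 0.52 and 0.47. Of all features 12.9% and 10.2% were called so with RA, and 6.13% and 3.69% untreated. For RA in the clone the shares were 2.58% higher and 2.05% lower. Tpm2, a tropomyosin, was higher with RA (3.01 ± 0.29, adjusted p = 0.000811, limma) and untreated (2.80 ± 0.29, 0.00179). Filamin A (Flna) and smooth muscle actin (Acta2) were higher with RA (1.61 ± 0.28, adjusted p = 0.00738, and 1.17 ± 0.34, adjusted p = 0.0456, limma). Fhl2, a LIM domain protein, was at least 3.36-fold higher in untreated clone arrays than in untreated parental arrays, on neither of which it was well above background (adjusted p = 0.0288, limma). With RA in the clone it was at least 5.52-fold lower (0.0418), the 1 gene of this list called. The calls of Tpm2 and Flna held in all 8 fits that left out an array. Acta2 was lost in 7 of them, all but that without replicate 2 of the RA-treated clone (adjusted p up to 0.182). Both Fhl2 calls were lost in 6, all but those without either RA-treated clone array (up to 0.175 between untreated lines and 0.255 for RA). Without replicate 1 of the RA-treated clone the counts with RA were 2 higher and 1 lower. Of the 5 Egr cofactors limma called 0 in the clone with RA and 0 untreated. At an unadjusted p under 0.05 there were 0 with RA, against 36.6% of all features, and 1 untreated, against 23.7%. Over both treatments 1 of 5 was called higher, against 16.1% of all features, and 0 lower, against 11.6%. The corepressor Nab2 had a log2 difference of 1.29 ± 0.32 untreated (adjusted p = 0.0517, limma) and was called higher over both treatments (0.87 ± 0.23, 0.0291), a call kept only without replicate 1 of the RA-treated clone or of the untreated parental line (adjusted p up to 0.104 in the other 6 fits).

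For RA in the parental line limma called 0 genes in each of the 5 lists. At an unadjusted p under 0.05, which 14.4% of all features had, there were 3 of 15 relatives, 9 of 42 other immediate early genes, 4 of 35 signalling genes, 4 of 18 SRF and MRTF targets and 0 of 5 Egr cofactors. The list medians there lay between -0.45 for the SRF and MRTF targets and 0.27 for the Egr cofactors, where all features had a median of 0.02.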

How the data were processed

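RNA was measured on 8 one-colour Cy3 arrays of an Agilent mouse design, 2 per group, grouped by the titles in the labels. The deposited scanner intensity came, per the file headers, from Feature Extraction 10.7.3.1, which had subtracted background and removed spatial trends. The deposited log2 table differed from log2 of that intensity by 1 constant per array, to within 1.95e-06, and served as an alternative. Here control and outlier spots were dropped, log2 intensity was scaled to each array's 75th percentile, probes had to be well above background on 2 or more arrays (36636 of 55681 kept), and the brightest probe stood for a gene. Each of the 10 genes had 1 probe with 1 spot, none flagged or saturated, and 9 were well above background on all arrays. Limma 3.58.1 (R 4.3.3) fitted 4 group means over all 8 arrays, with 4 residual and 3 prior degrees of freedom and Benjamini-Hochberg adjustment over 26262 features. The procedure was tested on simulated data with independent noise. Those data held no effect of slide row or of a single array, so the test does not cover these. The number of arrays limits the precision. The members and gene lists were chosen with earlier results of these data known. All members were named, and from each related list at most the 3 called genes of smallest adjusted p. Ier3ip1 was named besides, because it is not of these families. Nr4a2, Gem and Atf3, named for 1 comparison of the lines, were also given for the other, where they were called too. Alternatives were background correction, normalization, filters, floor, variance model, groups fitted, side of the slide, outlier spots, the deposited log2 values and leaving out each array. List counts without replicate 1 of the RA-treated clone, and the named list genes without each array, were added after seeing the data. 1 neuroblast marker of the original list is not reported here. RefSeq promoter windows were matched by symbol (6 of 10 genes).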

Additional observations from a re-analysis of the deposited data

Results flagged for a closer look

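For Egr1 and Klf10 both clone arrays with RA lay below both untreated ones, and both parental arrays with RA lay above. Of all features 28.7% lay fully below with RA in the clone and 23.4% fully above in the parental line. The share with both was not counted. No RA difference of either gene within a line passed the test (adjusted p 0.292 to 0.723, limma). The RA response of the clone minus that of the parental line was -1.75 ± 0.80 (SE) for Egr1 (adjusted p = 0.395, limma) and -1.46 ± 0.52 for Klf10 (adjusted p = 0.276, limma), so neither difference passed the test. Both values moved with the RA-treated clone arrays: Egr1 was -0.93 without replicate 1 and -2.57 without replicate 2, and Klf10 was -1.0 and -1.92. This difference is also that between the rows of the slide, and the 2 cannot be told apart.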

How the results depend on the processing

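Over 1293 comparisons of the 70 gene differences with an alternative, 57 changed sign, and none of those passed the test in either fit; 50 lost and 18 gained a call. The causes were not tested beyond the alternative's own construction. The count of early genes called for the clone untreated (2) was 0 with normexp, 1 without the filter on dim probes and 1 with slide side as a block; with RA (4) it was 2 without the filter and 1 in a fit of only the groups compared (2628 features). For RA in the clone (1) it was 0 without the filter, 0 with only the groups compared (0 of all features called), 3 with a trended, robust variance (2173) and 2 among probes above background on every array (1896). For the average over treatments (3) it was 5 under each of the last 2 settings (8194 and 6470 of all features, 7276 otherwise), and for the average RA effect (1) it was 2 under each (2430 and 2090, 1530 otherwise) and 0 without the filter. Without the filter 1386 features were called for the clone untreated (2578 otherwise), 3703 with RA (6081), 120 for the average RA effect (1530) and 0 for RA in the clone (1216); normexp gave 1213 untreated. Each fit without 1 array kept only 1 array in a group, so its counts of calls are not given here. Early genes called became fewer between untreated lines without any untreated array. With RA they became fewer whichever array was left out, most so without either RA-treated parental array. For the average over treatments they became fewer without some of the arrays. Fewer were also called for the average RA effect without any untreated array or replicate 1 of the RA-treated parental line. The RA response of the clone had fewer without any untreated array or replicate 1 of the RA-treated clone, and more without its replicate 2. The smaller falls were those of the average over treatments and those with RA that kept both RA-treated parental arrays. For these the number called among all features is not given here. In all the other fits named, that number moved the same way as the early genes. Those shifts therefore cannot be read as particular to the early genes. Signs turned with normexp for RA in the parental line (Egr3 -0.31, Klf6 0.09), the interaction (Egr3 0.32) and the average RA effect (Egr3 -0.15, Klf6 0.01, Klf10 0.03). They turned with quantile normalization for RA in the clone (Egr2 -0.35, Egr3 -0.17, Klf6 0.20), the interaction (Klf2 -0.13, Klf6 0.22) and the average RA effect (Klf6 0.09, Klf10 0.14), and with a floor for the interaction (Egr3 0.55). Without 1 array, signs turned within these ranges. Untreated: Egr2 -0.95 to 0.03, Egr3 -1.21 to 1.03, Klf4 -0.26 to 0.10, Klf6 -0.41 to 0.71 and Ier2 -0.17 to 2.08. With RA: Egr3 -1.60 to 1.06 and Klf6 -0.26 to 0.51. RA in the parental line: Klf6 -0.61 to 0.51. RA in the clone: Egr2 -0.14 to 0.84, Egr3 -0.48 to 2.19, Klf2 -0.35 to 0.04, Klf6 -0.25 to 0.10 and Ier2 -1.26 to 0.38. Interaction: Egr3 -1.51 to 1.15 and Klf6 -0.58 to 0.54. Average over treatments: Egr3 -0.85 to 0.49, Klf6 -0.14 to 0.41 and Ier2 -0.72 to 0.40. Average RA effect: Egr1 -0.69 to 0.14, Klf6 -0.34 to 0.22 and Klf10 -0.24 to 0.23. Quantile normalization moved the median of all features with RA to -0.15 (0.11 otherwise) and for RA in the clone to -0.13 (0.02), while the early genes' medians were -1.34 and -0.61. Normexp moved it to -0.19 untreated and -0.22 for RA in the parental line; it used the median spot signal, the mean not being in the tables used here. Other probes of a gene could not be tried, each early gene having 1, and Egr3 was not among the probes above background on every array. Averaging the probes of a gene and keeping outlier spots left the early genes' own values unchanged. A call kept under these settings therefore says little about its stability. The replicate numbers are only accession order and pair no samples by the labels; they coincide with slide side, so the block on slide side is also a replicate block.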
